A study of Mus musculus with 10 samples.

Results

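Solute carriers are membrane proteins that move sugars, amino acids, ions, nucleotides, lipids and metals across the cell surface and organelle membranes, and the number after "Slc" in a gene's symbol gives its family. Members were taken by symbol alone: 172 of the 10012 probes on the array carried a single gene symbol of this kind, for 170 genes in 46 families. The rule also takes in a few proteins that are not transporters, among them Slc3a2, the heavy chain that carries amino acid transporters to the membrane, Slc9a3r1 and Slc9a3r2, which are regulators of a sodium/proton exchanger, and Slc4a1ap, an adaptor protein. In the testis, Sertoli cells line the tubules and form the blood-testis barrier, so that meiotic and later germ cells depend on transporters for their fuel. Sertoli cells take up glucose and export lactate, and germ cells take lactate up through monocarboxylate transporters and burn it in mitochondria, whose inner membrane is crossed by the carriers of family 25.

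The study treated 15 male BALB/c mice, 9 weeks old, with trichostatin A (TSA), an inhibitor of class I and II histone deacetylases, or with its carrier of dimethylsulfoxide and PBS. In each of 4 TSA groups, 3 mice received 60 µg per mouse in 1 subcutaneous injection and were killed 2.5, 5, 7.5 or 10 h later, and 3 control mice received the carrier alone and were killed at 10 h. Testis RNA of the 3 mice was pooled, and each of the 5 pools was read on 2 CodeLink arrays, which makes 10 arrays. The duplicate arrays are technical, so each group is 1 pool, and a control at 2.5, 5 or 7.5 h was not analysed here.

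The deposited intensity is a linear fluorescence value with a median of 1.00 on every array. Of the 172 solute carrier probes, 4 had no value (Slc2a5, Slc7a11, Slc30a1 and Slc35b2) and 65 had a mean intensity below 0.207, the level under which the dimmest 25% of all probes lay. That left 103 tested probes for 102 genes in 36 families. The dim share was 38.7% of the solute carrier probes with a value, so these genes were read near the bottom of the scale more often than the 25% of all probes that the limit removes. Across the tested members, duplicate arrays correlated at 0.988 (7.5 h pool) to 0.998 (5 h pool), and 2 members, both in the 7.5 h pool, differed by more than 2-fold between duplicates. Summed markers of testis cells differed between the groups by less than 1.5-fold. Those of spermatids (3 measured of 8 listed) gave 258.8 to 346.5 on the TSA arrays, against 235.6 and 242.1 in control, and those of spermatocytes (5 of 6) gave 339.6 to 353.1 against 361.4 and 368.4, without overlap in either case. The spermatocyte markers did not move together. Ldhc, the brightest, averaged 210.7 to 219.1 in the TSA pools against 195.5 in control, while Pgk2, Hspa2, Sycp3 and Spo11 were lower in every TSA pool. Spermatogonial markers (4 of 5) gave 21.6 to 23.8 at 5, 7.5 and 10 h and 24.3 and 25.3 at 2.5 h, against 24.4 and 25.02 in control. Leydig cell markers (4 of 5) gave 100.2 to 130.7, highest at 2.5 h, against 99.9 and 105.8, Sertoli cell markers (6 of 6) 42.8 to 50.7 against 41.8 and 47.9, and macrophage markers (2 of 5) 1.09 to 1.27 against 1.36 and 1.39. Each sum follows its brightest genes, and single markers moved further in either direction. At 10 h Inha of the Sertoli list averaged 2.36 against 3.94 in control, and Acrv1 of the spermatid list 35.9 against 22.8. The part of these shifts in the values given here was not tested. The 5 h pool stood apart for 11 measured liver transcripts of 14 listed: their summed intensity was 184.4 and 184.6 on its arrays, against 10.7 to 14.6 on the other arrays.

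Promoter sequences are shown because histone deacetylases act on chromatin, gene starts included. They are those of the members that passed a limma test and of Slc27a2, the member of largest fold at a single time. Slc7a5, which also passed, is named only. Each line gives the 250 bases just before the transcription start, 5′ to 3′ on the gene's strand, from RefSeq for GRCm38.p6, a C57BL/6J reference and not the strain studied here. The windows are chr11:120948817-120949066 on the plus strand for Slc16a3, chrX:48623198-48623447 on the plus strand for Slc25a14 (the first of 3 listed starts), chr11:120491587-120491836 on the plus strand for Slc25a10, chr2:32982084-32982333 on the minus strand for Slc2a8 and chr2:126552774-126553023 on the plus strand for Slc27a2. Capitals mark matches on either strand to the GC box GGGCGG, the CCAAT box CCAAT or the E box CACGTG.
Slc16a3: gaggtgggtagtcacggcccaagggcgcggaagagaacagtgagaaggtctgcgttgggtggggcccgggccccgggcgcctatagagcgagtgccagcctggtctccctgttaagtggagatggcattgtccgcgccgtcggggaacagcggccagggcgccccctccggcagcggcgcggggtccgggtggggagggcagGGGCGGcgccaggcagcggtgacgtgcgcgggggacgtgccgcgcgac
Slc25a14: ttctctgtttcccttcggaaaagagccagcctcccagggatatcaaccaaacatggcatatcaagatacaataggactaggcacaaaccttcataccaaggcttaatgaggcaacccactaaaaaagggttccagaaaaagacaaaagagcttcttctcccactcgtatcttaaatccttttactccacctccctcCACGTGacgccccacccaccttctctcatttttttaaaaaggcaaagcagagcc
Slc25a10: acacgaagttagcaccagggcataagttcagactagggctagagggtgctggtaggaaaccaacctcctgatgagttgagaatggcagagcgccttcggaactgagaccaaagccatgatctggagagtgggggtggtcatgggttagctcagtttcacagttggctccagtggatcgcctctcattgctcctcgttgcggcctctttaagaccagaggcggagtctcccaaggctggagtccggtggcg
Slc2a8: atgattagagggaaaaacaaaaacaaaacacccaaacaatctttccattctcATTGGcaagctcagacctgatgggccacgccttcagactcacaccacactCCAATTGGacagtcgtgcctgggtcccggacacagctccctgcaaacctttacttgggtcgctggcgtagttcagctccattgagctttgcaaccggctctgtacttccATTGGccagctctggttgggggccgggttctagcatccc
Slc27a2: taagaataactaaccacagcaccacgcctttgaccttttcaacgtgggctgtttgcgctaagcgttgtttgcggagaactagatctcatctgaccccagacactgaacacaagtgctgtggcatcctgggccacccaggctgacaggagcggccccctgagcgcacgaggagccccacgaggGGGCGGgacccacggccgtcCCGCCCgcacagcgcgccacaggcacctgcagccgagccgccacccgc

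The 5 windows differ from one another. The Slc16a3 window holds 29 CpG dinucleotides and 1 GC box, and that of Slc27a2 holds 19 CpG and 2 GC boxes. The Slc25a14 window holds 4 CpG and 1 E box, that of Slc25a10 holds 9 CpG and none of the 3 motifs, and that of Slc2a8 holds 7 CpG and 4 CCAAT boxes, of which a pair on opposite strands overlaps. A promoter was matched for 138 of the 170 genes. The GC box was found in 55.1% of these 138, against 42.7% of 17492 protein-coding genes, the CCAAT box in 30.4% against 36.3%, and the E box in 13.8% against 6.64%. These are matches of letters in a window and say nothing of which factor binds there.

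As a class, the solute carriers stayed centred on control relative to the other probes. The sorted values are the same on every array, so a change common to all probes could not be seen. The median log2 fold of the 103 tested probes over control was 0.01, -0.03, -0.01 and 0.04 at 2.5, 5, 7.5 and 10 h, beside -0.02, -0.03, -0.01 and 0.01 over all 7422 tested probes. At all 4 times 72 of the 103 members (69.9%) lay within 1.5-fold of control, against 76.9% of all tested probes. The class medians lay within 0.1 log2 units of control at each time, and the calls described next belong to single genes.

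**Figure D1:**
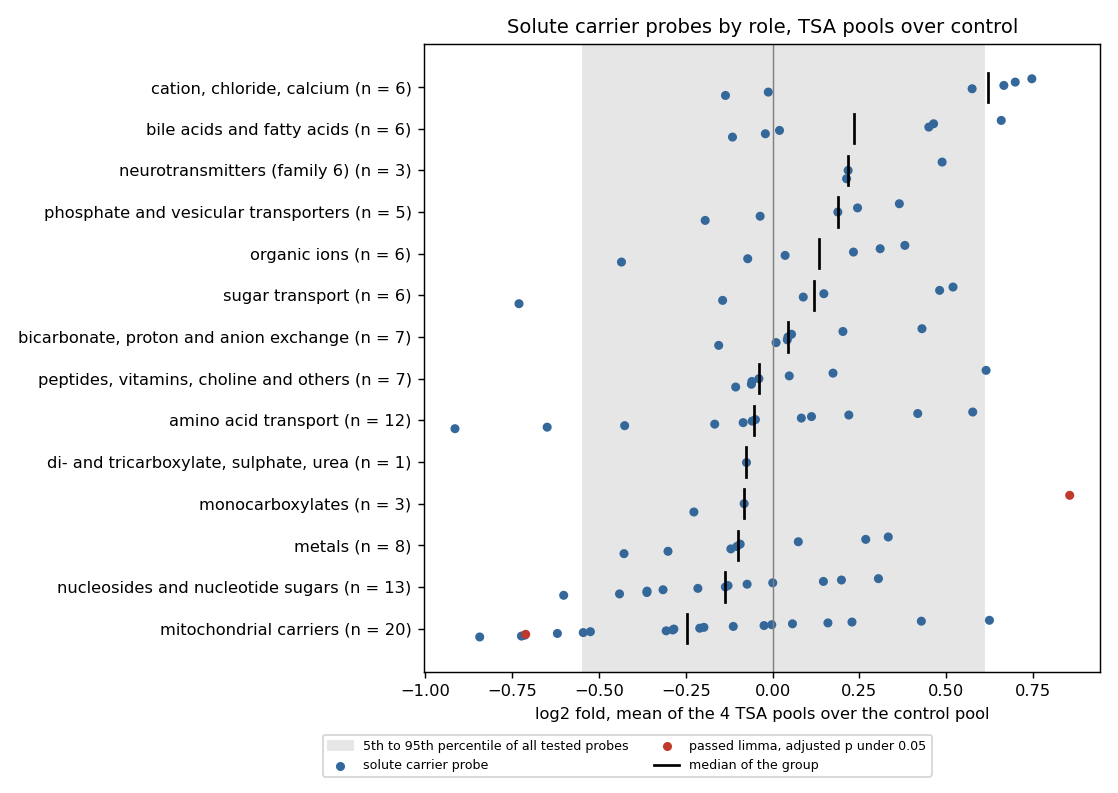
Mean log2 fold of the 4 TSA pools over the control pool (x axis) for each of the 103 tested solute carrier probes, 1 point per probe, in rows by transport role with a black line at each row's median. The grey band spans the 5th to 95th percentile of all 7422 tested probes (-0.55 to 0.61), and the 2 red points are Slc16a3 at 0.86 and Slc25a14 at -0.71, which passed the test.

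With 1 pool on each side, a single time has no replicate test, so a member was called there by size: at least a 2-fold change, with both TSA arrays beyond both control arrays. By that rule 0 members were called at 2.5 h, where 0.916% of all tested probes were. At 5 h 3 were higher and none lower, against 1.55% of all probes called, 1.21% higher and 0.337% lower. At 7.5 h 1 was lower and none higher, against 1.91% of all probes called, 0.903% lower and 1.01% higher. At 10 h 1 was higher and 3 were lower, against 2.67% of all probes called, 1.23% higher and 1.44% lower. Across the 5 pools, limma compared the mean of the 4 TSA pools with the control pool and, separately, fitted the change per hour across the pools (the control counted as 0 h), both two-sided with Benjamini-Hochberg adjustment over all 7422 probes. In the first comparison 1 member rose and 1 fell, against 3.53% of all probes called, 2.74% higher and 0.795% lower. In the slope none rose and 3 fell, against 2.01% of all probes called, 0.35% rising and 1.66% falling. Before adjustment, 28 members had a p under 0.05 in each of the 2 tests, a share of 27.2% in both, against 28.3% of all probes for the comparison and 25.1% for the slope. The shares of members called were thus of the same order as the background in each comparison. In both tests the single control pool is assumed to vary as the TSA pools do, and the times share that control. It was killed 10 h after carrier, so the slope has no pool taken at 0 h. In the slope, a change with hours of TSA cannot be told apart from one with hours after an injection. With that shared control, 32.3% of all tested probes were above control at all 4 times and 34.1% below. Of the members, 30.1% were above and 29.1% below at all 4 times. The share of all probes whose TSA and control arrays did not overlap was not counted. The genes described below as not overlapping therefore cannot be set against it.

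Among the sugar transporters, Slc2a8 fell with time. It encodes GLUT8, an intracellular hexose transporter expressed in testis. Its 2 arrays read 1.21 and 1.20 in the control pool, 0.932 and 0.906 at 2.5 h, 0.885 and 0.874 at 5 h, 0.675 and 0.616 at 7.5 h, and 0.556 and 0.513 at 10 h. Every TSA array was below both control arrays, and each later pool was below the one before it. The level at 10 h was 2.26-fold lower than control (log2 fold -1.17 ± 0.059, SE from the duplicate arrays), or -0.72 with an offset of 0.5 added to the intensity before the log, which ends that call by size. The slope was -0.114 ± 0.0149 log2 units per hour (limma, adjusted p = 0.023). The mean of the TSA pools against control, -0.73 on the log2 scale, did not pass (limma, adjusted p = 0.169). The slope missed the threshold when the control, 2.5 h, 7.5 h or 10 h pool was left out (adjusted p = 0.145, 0.058, 0.0798 and 0.169), with a slope between -0.12 and -0.11 each time.

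Slc2a1, the general glucose transporter GLUT1 that Sertoli cells also use, passed no test. It read 1.00 and 1.20 on the 10 h arrays against 0.548 and 0.618 in control, and its mean log2 difference in the TSA pools was 0.52 ± 0.23 (limma, adjusted p = 0.198). Slc5a4b, a sodium-dependent sugar transporter family member, had a log2 fold of -0.08 to 0.23 over the 4 times, and Slc5a3, the sodium/myo-inositol cotransporter, had -0.19 to -0.07. Slc2a3, the neuronal and sperm glucose transporter GLUT3, and Slc2a2, the liver and islet transporter GLUT2, were below the dim limit, with pool means of 0.046 to 0.0994 and 0.119 to 0.200, and no fold is given for them.

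Among the monocarboxylate transporters, Slc16a3 rose. It encodes MCT4, the proton-coupled transporter through which glycolytic cells export lactate. The arrays read 0.595 and 0.578 in control, 0.979 and 1.03 at 2.5 h, 1.18 and 1.21 at 5 h, 0.992 and 0.879 at 7.5 h, and 1.10 and 1.17 at 10 h. All 8 TSA arrays were above both control arrays, already at the first time. The mean log2 difference in the TSA pools was 0.86 ± 0.16 (limma, adjusted p = 0.0478, higher in 4 of 4 pools), and the largest fold was 2.04 at 5 h. With the offset the 5 h log2 fold was 0.64, under the size limit, and the mean difference was 0.52 (adjusted p = 0.0401). The limma call is close to the threshold: its adjusted p ran up to 0.0796 over the 10 fits that left out 1 array, 7 of which missed 0.05, and was 0.0617, 0.091, 0.108 and 0.063 without the 2.5, 5, 7.5 and 10 h pool, while the difference stayed between 0.80 and 0.92 in these fits.

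Slc16a7, which encodes MCT2, the high-affinity transporter through which germ cells take up lactate and pyruvate, read 42.3 to 57.3 on the 8 TSA arrays against 54.5 and 52.5 in control, so the groups overlapped. Its mean log2 difference was -0.08 ± 0.16 (limma, adjusted p = 0.768). Slc16a11, another member of the family, had a difference of -0.23 ± 0.13 (limma, adjusted p = 0.299). Slc16a1, the broadly expressed MCT1, was below the dim limit, with pool means of 0.137 to 0.359, the highest resting on 7.5 h arrays of 0.165 and 0.554.

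Among the amino acid transporters, both large neutral amino acid transporters measured above the dim limit had less transcript late after TSA. Slc7a5 and Slc7a8 encode LAT1 and LAT2, light chains that exchange leucine and other large neutral amino acids and also carry thyroid hormone. For Slc7a5 the arrays read 2.18 and 2.13 in control, 1.96 and 2.02 at 2.5 h, 1.34 and 1.26 at 5 h, 1.29 and 1.24 at 7.5 h, and 1.09 on both arrays at 10 h. Every TSA array was below both control arrays, with a small gap at 2.5 h and a wide one from 5 h on. The slope was -0.105 ± 0.0176 log2 units per hour (limma, adjusted p = 0.0437), with a log2 fold of -0.98 ± 0.017 at 10 h. The slope missed the threshold without any 1 of the 5 pools (adjusted p = 0.0539 to 0.195) and without either 7.5 h array (0.0627 and 0.051), at -0.12 to -0.10 log2 units per hour. It also missed with centring on probes of like identifier number (limma, adjusted p = 0.0514) and with no dim filter (0.149).

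Slc7a8 read 0.832 and 0.920 in control, 0.752 and 0.793 at 2.5 h, 0.502 and 0.480 at 5 h, 0.334 and 0.282 at 7.5 h, and 0.367 and 0.433 at 10 h. It was the 1 member called lower at 7.5 h (log2 fold -1.51 ± 0.14) and was called again at 10 h (-1.13 ± 0.14). With the offset neither call held (-0.77 and -0.61), and centring on probes of like identifier number ended the 10 h call (-0.98). Its hourly change, -0.144 ± 0.0299 on the log2 scale, did not pass (limma, adjusted p = 0.0606). Slc3a2, the heavy chain both light chains pair with, read 3.91 and 4.14 in control and 3.33 and 3.29 at 10 h, with a slope of -0.0356 ± 0.0138 (limma, adjusted p = 0.172). Slc7a7, a light chain for cationic and neutral amino acids, had a log2 fold of -0.18 to 0.11 over the 4 times. The glutamate and neutral amino acid transporters of family 1 and the glutamine transporters of family 38 had no call, and the 7.5 h duplicates of Slc38a2, a sodium-coupled neutral amino acid transporter, read 1.06 and 0.446. Over all 12 tested members of this role the median difference of the TSA pools from control was -0.05 on the log2 scale.

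**Figure D2:**
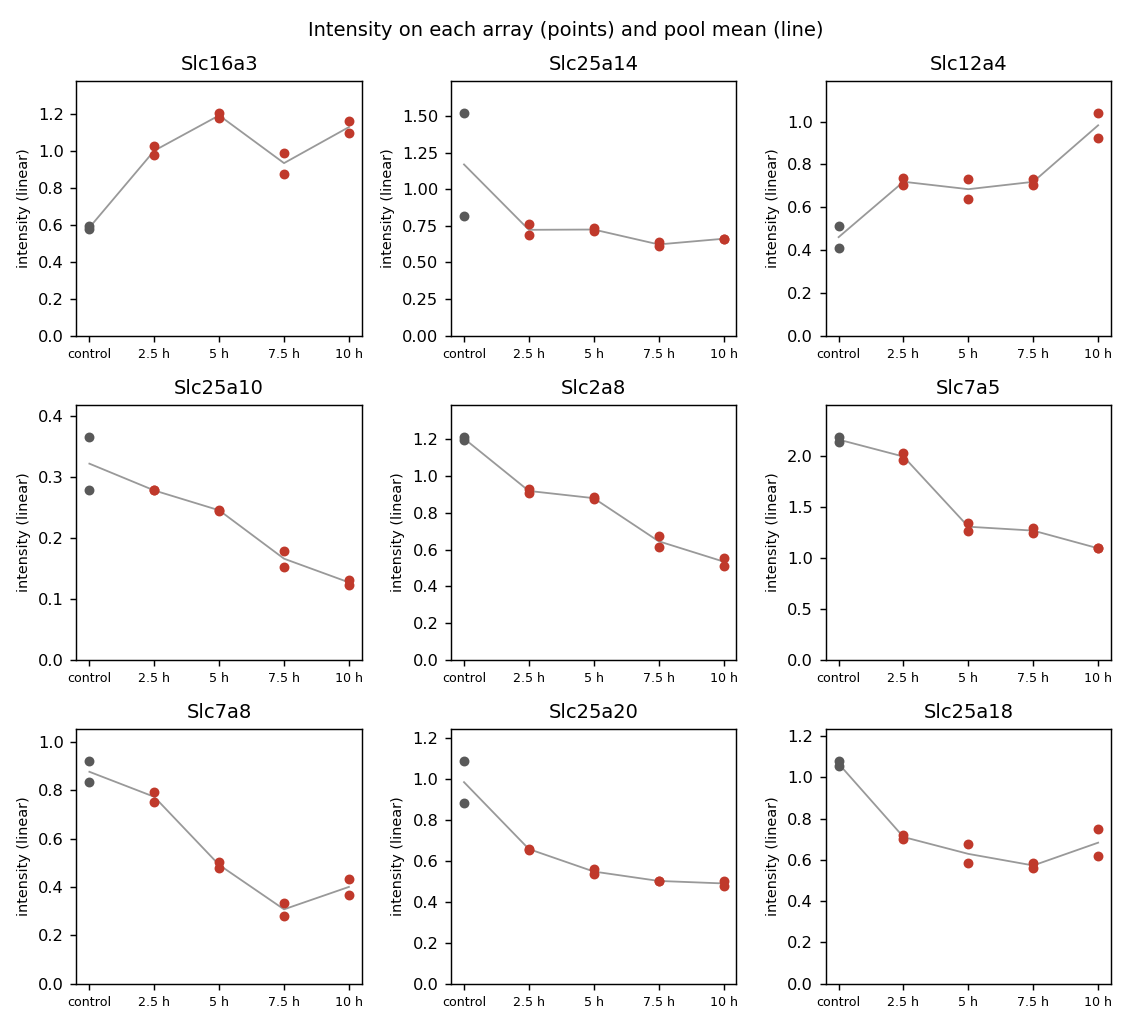
Intensity on each array (y axis, deposited normalised units) by pool (x axis: control, then 2.5, 5, 7.5 and 10 h after TSA) for Slc16a3, Slc25a14, Slc12a4, Slc25a10, Slc2a8, Slc7a5, Slc7a8, Slc25a20 and Slc25a18, with points for arrays and a line through the pool means. Slc2a8 steps down to 0.556 and 0.513 at 10 h against 1.21 and 1.20 in control, and the control duplicates of Slc25a14 lie far apart at 1.52 and 0.817.

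The mitochondrial carriers of family 25 had the most tested members, 20 of 21 probes. Their median log2 fold over control was -0.19, -0.14, -0.34 and -0.35 at 2.5, 5, 7.5 and 10 h, beside medians of all probes between -0.03 and 0.01, and 15 of the 20 had a mean TSA level below control, beside 3867 of all 7422 probes. Of the 20, 1 fell in the TSA pools against control and 1 fell in the slope, and none rose in either. Without adjustment, 6 were lower and 2 higher at a p under 0.05 in the comparison, and 9 were lower and 1 higher in the slope. Of all probes, 13.7% were lower and 14.7% higher in the comparison and 12.4% lower and 12.7% higher in the slope by that p. Over the 83 tested solute carrier probes outside the family the median difference of the TSA pools was 0.02. No test of the family as a whole was made.

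Slc25a10, the dicarboxylate carrier that exchanges malate and succinate for phosphate, fell with time. It read 0.365 and 0.278 in control, 0.278 on both arrays at 2.5 h, 0.246 and 0.244 at 5 h, 0.153 and 0.179 at 7.5 h, and 0.123 and 0.131 at 10 h. The slope was -0.136 ± 0.017 log2 units per hour (limma, adjusted p = 0.0223) and the log2 fold at 10 h was -1.33 ± 0.20. From 7.5 h on the probe lay under the dim limit of 0.207, where sizes are uncertain: with an offset of 0.5 added to the intensity the 10 h fold shrank to -0.39 and the slope to -0.04 (limma, adjusted p = 0.0788). Without control array 1 its mean fell below the dim limit, so it left the tested probes. The slope also missed the threshold without the control, 2.5 h, 7.5 h or 10 h pool (adjusted p = 0.125, 0.058, 0.0638 and 0.165).

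Slc25a14, an uncoupling-protein-like carrier, was lower in all 4 TSA pools. Its TSA arrays read 0.759 and 0.686 at 2.5 h, 0.732 and 0.716 at 5 h, 0.609 and 0.637 at 7.5 h, and 0.661 and 0.662 at 10 h, against 1.52 and 0.817 in control. The log2 difference was -0.71 ± 0.13 (limma, adjusted p = 0.0474), an SE that does not include the gap between the control arrays. With the offset it was -0.47 (adjusted p = 0.0346). The size of the fall rests on 1 control array: without control array 1 the difference was -0.26 (adjusted p = 0.237), and without control array 2 it was -1.16 (adjusted p = 0.0318). Leaving out 1 TSA array kept the call in 1 of 8 fits, with adjusted p up to 0.0699, and leaving out any 1 TSA pool ended it (adjusted p = 0.0604 to 0.11).

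Several other carriers of the family are given although they did not pass. The share of all tested probes with an adjusted p as near to 0.05 was not counted, here or for the other roles. Slc25a20, which brings acylcarnitines into the mitochondrion for fatty acid oxidation, read 0.655 and 0.660 at 2.5 h, 0.560 and 0.535 at 5 h, 0.502 on both arrays at 7.5 h, and 0.477 and 0.502 at 10 h, against 1.09 and 0.881 in control. Its difference was -0.84 ± 0.18 (limma, adjusted p = 0.0536). Slc25a18, a glutamate carrier, had -0.72 ± 0.15 (adjusted p = 0.0509) and Slc25a1, the citrate carrier, -0.62 ± 0.16 (adjusted p = 0.0779). Both had all 8 TSA arrays below both control arrays. By pool mean, 34.1% of all tested probes were below control at all 4 times.

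Slc25a39, which imports glutathione, read 16.2 to 20.3 over the TSA arrays against 24.4 and 28.9 in control (difference -0.52 ± 0.14, limma, adjusted p = 0.0825). Slc25a37, the iron importer mitoferrin 1, lay on the other side, with 0.62 ± 0.17 (adjusted p = 0.082). The carriers of bulk energy metabolism did not pass either, beside a median difference of -0.25 over the family. Slc25a4 and Slc25a5, which exchange ADP and ATP, had differences of 0.16 ± 0.11 and -0.28 ± 0.15 (adjusted p = 0.36 and 0.261), and Slc25a3, the phosphate carrier, had -0.20 ± 0.12 (adjusted p = 0.315). Slc25a33, a pyrimidine nucleotide carrier, had -0.02 ± 0.12 (adjusted p = 0.915).

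**Figure D3:**
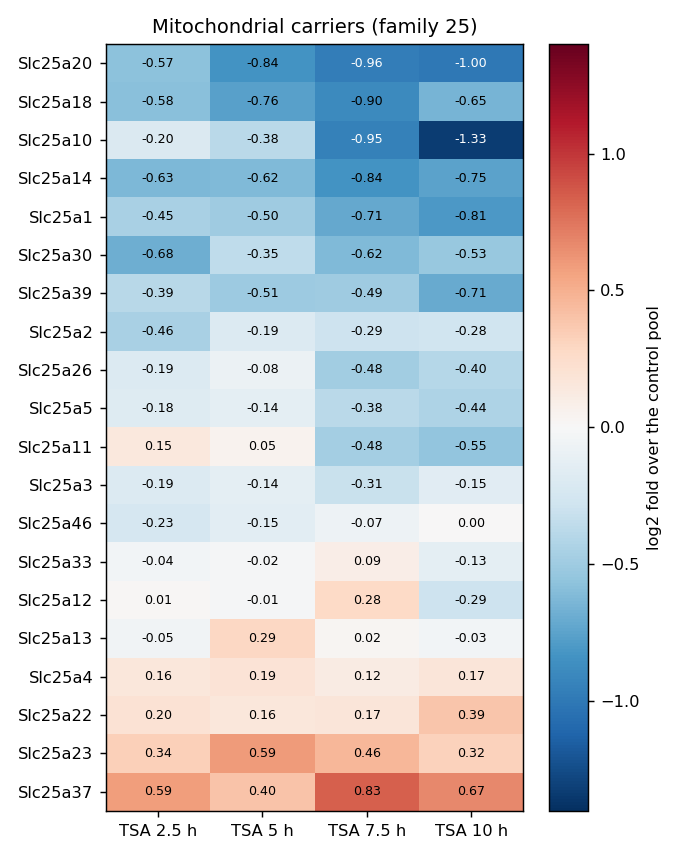
Log2 fold over control of the 20 tested mitochondrial carriers of family 25 (rows) at 2.5, 5, 7.5 and 10 h after TSA (columns), with blue below and red above control. Slc25a10 reaches -1.33 at 10 h and Slc25a20 reads -0.96 at 7.5 h, while Slc25a37 is above control at every time.

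Among the cation and chloride cotransporters, 6 of 10 probes were tested. Their median log2 fold was 0.49, 0.58, 0.57 and 0.53 at the 4 times. At every time 4 of the 6 were above control and 1 was below, beside 32.3% and 34.1% of all tested probes. None of the 6 passed a test. Slc12a4, the potassium/chloride cotransporter KCC1 that lets cells shrink after swelling, was the 1 member called higher at 10 h, with arrays at 1.04 and 0.924 against 0.407 and 0.512 in control (log2 fold 1.10 ± 0.19, 2.15-fold). Its other TSA arrays read 0.636 to 0.734, also above both control arrays, and its mean difference was 0.75 ± 0.21 (limma, adjusted p = 0.0845). The 10 h log2 fold was under the limit without control array 1 (0.94) and with the offset (0.63).

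Slc12a2, the sodium/potassium/chloride cotransporter NKCC1, which mice need for spermatogenesis, read 0.543 to 0.786 over the TSA arrays against 0.441 and 0.366 in control (0.70 ± 0.18, limma, adjusted p = 0.0748). Slc12a3, the thiazide-sensitive cotransporter of the kidney, had a difference of 0.67 ± 0.15 (adjusted p = 0.0602), and Slc24a2, a potassium-dependent sodium/calcium exchanger, had 0.57 ± 0.14 (adjusted p = 0.0714). The groups did not overlap for any of these 3 genes, and how many of all probes did so was not counted. Slc24a3, a close relative of Slc24a2, had -0.14 ± 0.11 (adjusted p = 0.455). The sum of 5 kidney markers, all 5 of those listed, was 0.515 and 0.532 at 2.5 h, 0.481 and 0.556 at 5 h, 0.8995 and 0.978 at 7.5 h, and 0.730 and 0.777 at 10 h, against 0.547 and 0.628 in control. It was above control in the 7.5 and 10 h pools, in which Slc12a3 also read highest (1.46 and 1.47, and 1.43 and 1.37). At 2.5 and 5 h Slc12a3 read 1.16 to 1.30, already above its control arrays at 0.796 and 0.863. At those times the kidney sum lay within or below its control range. Of its markers, Cdh16, Kap, Miox and Napsa averaged below the dim limit in every pool. The part of kidney RNA in the Slc12a3 value was not tested. Of 9 measured genes of a list of kidney transporters, 3 were above the dim limit (Slc12a3, Slc22a12 and Slc22a6), and Slc34a1, the phosphate transporter of the proximal tubule, was below it. All 3 were above control at all 4 times, beside 32.3% of all tested probes. Their median log2 fold was 0.37, 0.37, 0.63 and 0.37 at 2.5, 5, 7.5 and 10 h. Their mean differences ran from 0.31 to 0.67, and none passed.

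Among the bile acid and fatty acid transporters, a pair of genes stood high in the 5 h pool. Slc27a2 encodes a fatty acid transport protein that is also a very long chain acyl-CoA synthetase, and Slc27a5 the bile acyl-CoA synthetase, both best known from liver. For Slc27a2 the arrays read 0.314 and 0.291 in control, 0.227 and 0.320 at 2.5 h, 1.55 and 1.77 at 5 h, 0.244 and 0.209 at 7.5 h, and 0.313 and 0.268 at 10 h. The 5 h pool was 5.47-fold above control (log2 fold 2.45 ± 0.11) and 6.35-fold above the mean of the other TSA pools, while the other TSA arrays read 0.209 to 0.320.

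Slc27a5 read 0.416 and 0.458 in control, 0.477 and 0.531 at 2.5 h, 1.34 and 1.60 at 5 h, 0.549 and 0.427 at 7.5 h, and 0.631 and 0.633 at 10 h, which put the 5 h pool 3.36-fold above control (log2 fold 1.75 ± 0.15) and 2.74-fold above the other TSA pools. These were the 2 members called higher in the 5 h pool against the other TSA pools, where 0.606% of all probes were. With the offset the 5 h log2 fold was 1.42 for Slc27a2 and 1.07 for Slc27a5, and the difference of Slc27a5 from the other TSA pools was 0.92, under the limit. The liver markers named above moved in the same pool: Apoa1, the main protein of high-density lipoprotein, averaged 28.5 at 5 h against 0.0745 in control, and Fabp1, the liver fatty acid binding protein, averaged 32.9 against 0.352. The part of liver RNA in the Slc27a2 and Slc27a5 values was not tested, and fewer cells of a type cannot be told apart from less RNA per cell in these pools.

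Other liver transporters did not form such a peak. Of 21 listed, 13 were on the array and 8 above the dim limit. At 5 h 7 of these 8, Slc27a2 and Slc27a5 included, were above control, with a median log2 fold of 0.35, and the log2 folds of the other genes ran from -0.38 to 0.93. Slc38a3, a glutamine transporter of liver and kidney, read 0.394 and 0.391 at 5 h against 0.202 and 0.209 in control, yet its 7.5 and 10 h arrays reached 0.377 and 0.409. Slc10a1, the sodium/bile acid cotransporter of hepatocytes, read 1.55 to 1.76 over all TSA arrays against 1.15 and 1.22 in control, with no peak at 5 h (difference 0.46 ± 0.11, limma, adjusted p = 0.0705). Slc37a4, the glucose 6-phosphate transporter, had a log2 fold of 0.27 ± 0.15 at 5 h and 0.44 ± 0.086 at 10 h. Slc2a2 and Slc38a4, a liver amino acid transporter, were below the dim limit, with 5 h arrays of 0.164 and 0.190, and 0.154 and 0.121. Slc27a1 and Slc27a3, the fatty acid transport proteins of other tissues, had log2 folds between -0.18 and 0.12 at the 4 times.

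**Figure D4:**
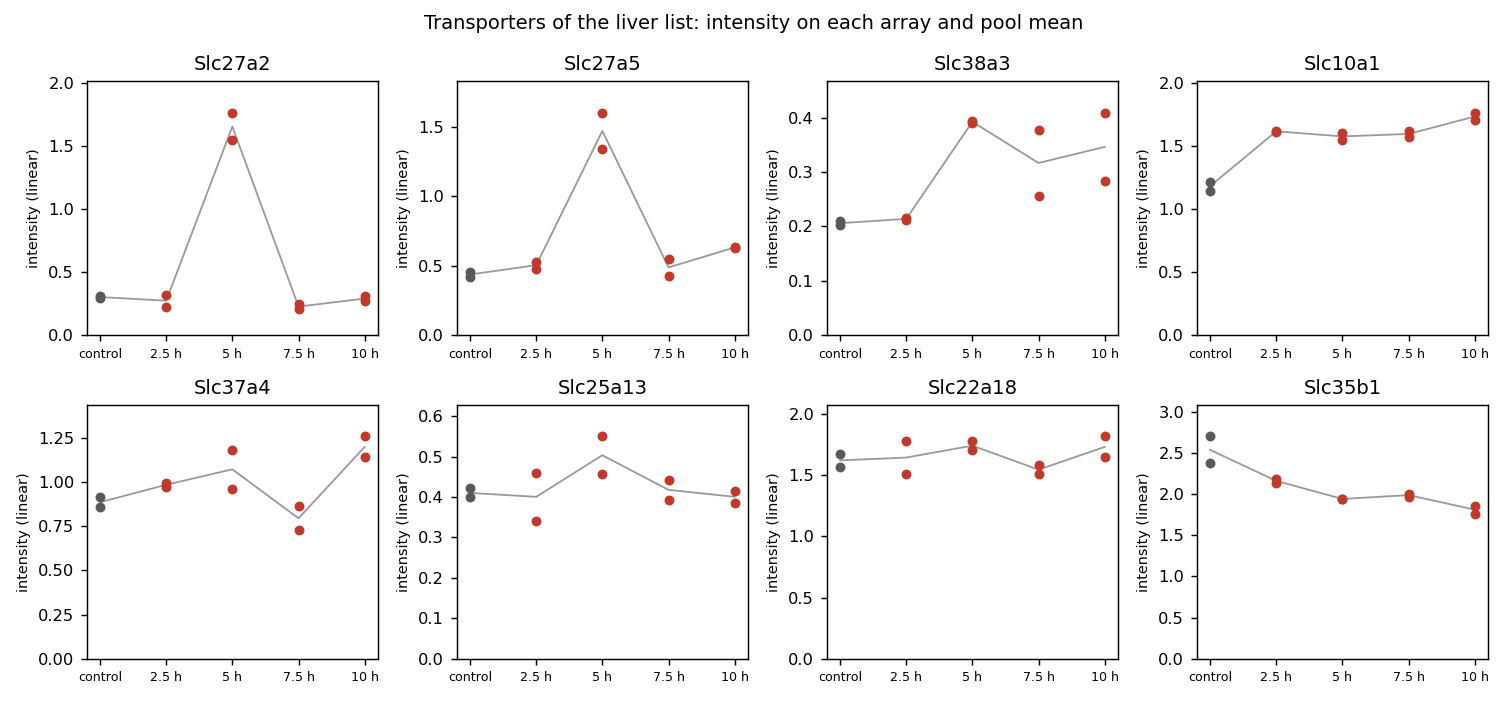
Intensity on each array (y axis, deposited normalised units) by pool (x axis: control, then 2.5, 5, 7.5 and 10 h after TSA) for the 8 liver-expressed transporters above the dim limit, with points for arrays and a line through the pool means. Slc27a2 and Slc27a5 peak at 5 h (1.55 and 1.77, and 1.34 and 1.60), while Slc10a1 is above control at every time without a peak.

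Among the transporters of organic ions, 6 of 10 probes were tested and none was called. Slc22a21, a carnitine transporter enriched in testis, read 6.58 to 9.02 over the TSA arrays against 11.3 and 9.73 in control, so the groups did not overlap, and its difference of -0.44 ± 0.14 did not pass (limma, adjusted p = 0.11). Slc22a12, the urate transporter URAT1 of the kidney, had 0.38 ± 0.10 (adjusted p = 0.0825). Slc22a18, an organic cation transporter-like protein, had 0.04 ± 0.12 (adjusted p = 0.871). Of 16 listed transporters of testis germ cells, 6 were on the array and 5 were tested, with a median difference of -0.12; Slc2a8 is the member that fell, in the slope. Slc39a8, a zinc and manganese importer of that list, read 0.768 to 0.838 at 2.5 and 5 h, against 1.07 and 0.989 in control, and 1.05 to 1.18 at 7.5 and 10 h.

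The nucleoside and nucleotide sugar transporters had 13 of 15 probes tested, a median difference of -0.14 and no call. Slc29a1, the equilibrative nucleoside transporter ENT1, changed by -0.0656 ± 0.0156 per hour on the log2 scale (limma, adjusted p = 0.0764), with 1.37 and 1.22 at 10 h against 1.83 and 2.01 in control. Slc35e3, for which no role is given here, was highest at 2.5 h, with 1.52 and 1.62 against 0.959 and 0.986 in control, and had 0.820 and 0.711 at 10 h. Slc35a5 and Slc35g3 had differences of -0.21 ± 0.17 and 0.00 ± 0.12 (adjusted p = 0.447 and 0.998), and Slc35b1, an endoplasmic reticulum nucleotide transporter, had -0.36 ± 0.13 (adjusted p = 0.135).

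In the remaining roles no member was called. Of family 6, 3 of 8 probes were tested. Slc6a4, the serotonin transporter, read 0.706 to 0.884 over the TSA arrays against 0.602 and 0.571 in control (difference 0.49 ± 0.11, limma, adjusted p = 0.0629). Slc6a6, the taurine transporter, had 0.22 ± 0.12 (adjusted p = 0.277), and Slc6a3, the dopamine transporter, had 0.21 ± 0.21 (adjusted p = 0.542). Slc19a1, the reduced folate carrier, read 1.62 to 2.04 over the TSA arrays against 1.15 and 1.24 in control (0.62 ± 0.15, adjusted p = 0.0702). The groups did not overlap for Slc6a4 or Slc19a1, and neither difference passed. By pool mean, 32.3% of all tested probes were above control at all 4 times.

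Of the bicarbonate, proton and anion exchangers, 7 of 12 probes were tested, with a median difference of 0.04. Slc4a10, a sodium-dependent bicarbonate transporter, read 1.58 and 1.57 at 10 h against 1.07 and 1.08 in control, at 0.0562 ± 0.014 per hour on the log2 scale (limma, adjusted p = 0.0841), and Slc4a2, the anion exchanger AE2, had a difference of 0.20 ± 0.15 (adjusted p = 0.403). The adaptor Slc4a1ap had 0.01 ± 0.12 (adjusted p = 0.965). Of the metal transporters, 8 of 15 probes were tested, with a median of -0.10. The zinc transporters Slc30a4 and Slc39a7 had 0.27 ± 0.12 and 0.33 ± 0.13 (adjusted p = 0.194 and 0.157), and Slc31a2, a relative of the copper transporter Slc31a1, had 0.07 ± 0.12 (adjusted p = 0.709). Among the phosphate and vesicular transporters, 5 of 10 probes were tested. Slc20a1 and Slc34a2, sodium/phosphate cotransporters, had -0.19 ± 0.11 and 0.24 ± 0.12 (adjusted p = 0.302 and 0.227), and the 2 probes of Slc17a6, the vesicular glutamate transporter VGLUT2, disagreed, with -0.04 and 0.37. Slc17a5, the lysosomal sialic acid exporter, had 0.19 ± 0.14 (adjusted p = 0.4).

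The members of other families also stayed near control. Slc33a1, the acetyl-CoA transporter of the endoplasmic reticulum, had a difference of 0.05 ± 0.15 (limma, adjusted p = 0.866) and Slc44a2, a choline transporter-like protein, -0.11 ± 0.14 (adjusted p = 0.64). Slc14a2, a urea transporter of the kidney, was the 1 tested member of its role, with -0.08 ± 0.15 (adjusted p = 0.778).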

How the data were processed

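Testis RNA of 3 mice per group was read on 2 CodeLink arrays per pool. The deposited table holds linear intensity values; the sorted values of the 10 arrays were identical, so the authors' values had been quantile normalised. For scanner settings, background correction and spot flags, the labels used here give nothing. Groups follow the labels. A floor was set at the 5th percentile (0.0364), log2 was taken, arrays were shifted to a common median, and the dimmest 25% of 9897 probes with a value were left out. Duplicate arrays were averaged, and limma 3.58.1 (R 4.3.3) was fitted to the 5 pool means (3 residual degrees of freedom). A passed test is an adjusted p under 0.05. The fits were tested on simulated data. The SE of a fold at 1 time covers the duplicate arrays only.

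Symbols came from the platform table, and all 172 solute carrier probes matched a mouse gene table by gene identifier. The mice per pool limit precision, and p-values measure the spread between pools. Members and lists were chosen with earlier results of these data known. Named genes were those passing a limma test, the 3 of highest mean intensity in each role, a fixed list, the members of the liver, kidney and testis lists (up to 4 of each), and members meeting the size rule with a mean intensity above 1.99, of which there were none. Slc7a5 passed the slope test. Slc7a8, Slc12a4 and Slc27a2, which met the size rule, were chosen after their values were seen, as were Slc25a1, Slc25a18, Slc25a20, Slc25a37, Slc29a1, Slc35e3, Slc38a2, Slc38a3, Slc6a9 and Slc17a6. Alternatives were another centring, the dim filter, the floor, fold limits, fits to 10 arrays, and leaving out each array and each pool. Same-numbered arrays of different pools did not deviate together (10 pairs, correlation -0.187 to 0.14), so the numbers do not pair arrays.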

Additional observations from a re-analysis of the deposited data

Results flagged for a closer look

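The genes checked were 53, those tested that were named by rule and all members called. In each, the gap of the highest or lowest TSA pool to its neighbour was compared with the range of the 4 TSA pools. In 3 (5.66%) the ratio exceeded Dixon's 95% critical value, which chance passes in about 1 in 20 groups. Slc27a2 and Slc12a4 entered the set through their calls at 5 and 10 h, so that share cannot be set against chance. Slc22a12 had its 7.5 h pool highest with a ratio of 0.899, although its log2 fold there was 0.41 and 0.37 at each of the other times. Slc27a2 had its 5 h pool highest with a ratio of 0.876, in the pool where liver transcripts stood high. Slc12a4 had its 10 h pool highest with a ratio of 0.858.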

How the results depend on the processing

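No called member reversed its direction under any alternative run, and members without a call were not checked for this. Of 139 values of called members under alternatives other than leaving out an array, 93 kept their call and 46 lost it, and of 96 values with 1 array left out, 78 kept it and 18 lost it. Dim probes, 1 control pool and 3 residual degrees of freedom limit every call, and the cause of the changes below was not tested unless the alternative itself changes the probes or pools used.

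Each count of members is followed by the share of all probes called in the same fit. By the size rule, the count of 0 at 2.5 h (0.916%) became 3 with no dim filter (2.21%) and 8 with a 1.5-fold limit (7.57%), and 0 to 1 with 1 array left out. The count of 3 at 5 h (1.55%) became 9 with no filter (3.59%), 0 with the lowest 50% left out (0.546%) and 14 with a 1.5-fold limit (9.84%), and 3 to 4 with 1 array left out. The count of 1 at 7.5 h (1.91%) became 4 with centring on probes of like identifier number (1.95%), 13 with no filter (5.6%), 19 with a 1.5-fold limit (11.8%), and 0 with the lowest 50% left out (0.748%), an offset (0.243%) or a 3-fold limit (0.216%). With 1 array left out it was 1 to 5 (5 without control array 2, 3 and 4 without the 7.5 h arrays). The count of 4 at 10 h (2.67%) became 7 with that centring (2.71%), 13 with no filter (4.63%), 20 with a 1.5-fold limit (16.5%), and 0 with the lowest 50% left out (1.48%), an offset (0.404%) or a 3-fold limit (0.391%). With 1 array left out it was 2 to 6 (2 without control array 1). The count of 2 in the 5 h pool against the other TSA pools (0.62%) became 0 with the lowest 50% left out (0.243%) and 1 with an offset (0.552%) or a 3-fold limit (0.364%), and was 2 to 2 with 1 array left out.

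In the comparison of the TSA pools with control, the 2 calls (3.53%) became 0 with that centring (0.175%). With no filter there was 1 (0.0101%), a lower member other than Slc16a3 and Slc25a14, which both lost their call. There were 5 with an offset (5.77%), 12 with a trended and robust variance (10.7%), and 0 without any 1 TSA pool (0.0404% to 0.0943%). With the lowest 50% left out there were 7 calls (11.6%) among 52 members, and neither Slc16a3 nor Slc25a14 was tested. The range with 1 array left out was 0 to 8 (8 without control array 2, 1 without control array 1). In the slope, the 3 calls (2.01%) became 0 with no filter, where no probe passed, and 7 with a trended and robust variance (3.89%). They became 0 without the control, 2.5, 7.5 or 10 h pool (0% to 0.391%) and 2 without the 5 h pool. With 1 array left out there were 2 to 5 (5 without the second 10 h array). That centring also gave 3 calls (1.75%), but kept 2 of the main calls and lost Slc7a5. With the lowest 50% left out there were 3 (3.62%), of which 1, Slc7a5, was a main call. Fits that take the 10 arrays as separate samples count technical duplicates as replicates: they gave 35 calls in the comparison (35.8%) and 35 in the slope (31.7%). The array numbers do not pair the arrays, and with the replicate block these fits gave 33 (32.2%) and 30 (28.4%). With the pool as a random block they gave 14 (14.1%) and 13 (9.69%).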

Other observations

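Slc6a9, the glycine transporter GLYT1, had a mean below the dim limit, yet read 0.0006 to 0.0292 on the TSA arrays against 0.178 and 0.390 in control. Every TSA reading of Slc6a9 lay below the floor of 0.0364, so no fold is given for it. Slc45a2, a melanosome transporter, read 0.423 and 0.335 at 10 h against 0.199 and 0.251 in control (slope 0.0616 log2 units per hour, limma, adjusted p = 0.0992). Both were chosen after their values were seen.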
